A study of Mus musculus with 35 samples.

Results

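Transcripts of 6 Kruppel-like factors, Klf2, Klf3, Klf4, Klf6, Klf9 and Klf10, were followed in mouse marrow stem cells and T lymphocytes. The members were the 10 probe sets listed under these gene symbols in the platform annotation, of 12422 probe sets in all and of 10833 with a single gene. Klf3, Klf4, Klf9 and Klf10 had 2 probe sets each, and Klf2 and Klf6 had 1.

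Side population (SP) cells pump out the Hoechst dye, a property of marrow stem cells, and were sorted, with Sca-1 on their surface and without Gr-1, from C57Bl/6 CD45.1 mice, 7 to 9 weeks old, the marrow of 1 mouse being used in an experiment. The ten-cell experiment had 3 samples each of LSP cells (lower part of the SP region; samples A, B and M), USP cells (upper part; samples N, O and Z) and CD8 cells, which were T lymphocytes positive for CD3 and CD8 (samples B, C and D). Each ten-cell sample pooled 4 amplifications of 10 cells and was run on 2 arrays. The single-cell experiment had 12 single cells (SC) from the tip of the SP tail, named A to L, and 5 single-cell-equivalents (SCE), named A to E. The SCE were 4-µl aliquots of 1 lysate of 40 such cells in 160 µl, so they differ from each other by the handling and by the sampling of molecules and not by the cell. No treatment is named for any group. Males are named in the labels of all groups except USP, whose labels give no sex.

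Kruppel-like factors are transcription factors with zinc fingers at the carboxyl end, and they bind GC-rich elements and CACCC boxes in DNA. Some mainly activate their targets and others mainly repress them by recruiting corepressors such as the CtBP proteins. Several members are early response genes whose transcripts rise and decay quickly, and in blood cells the family is known for roles in quiescence, migration and lineage choice.

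Values are signal intensities on a linear scale, with every array scaled to a trimmed mean of 250.1 to 250.4. On 9 of the 12 ten-cell SP arrays, 24.6% to 32.1% of values were negative, whereas the other 26 arrays, all 6 CD8 arrays among them, held positive values alone. The kind of values therefore went partly with the population. In the ten-cell samples, a level is the log2 intensity, with levels under 7 (intensity 128) set to that floor and the 2 arrays averaged. In SC and SCE, levels were logged with no floor, and a probe set was called detected at a level of at least 9 (intensity 512). From 3075 to 4053 probe sets lay above the floor on a ten-cell array, 1194 to 1489 were detected in a single cell and 1351 to 1563 in an SCE. The sorted cells carried their defining markers: 8 of 9 T-cell probe sets lay above the floor in CD8 cells, with summed levels of 95.4 to 97.1 against 63.0 to 64.9 in SP cells, and 6 of 6 stem cell probe sets lay above it in LSP and in USP cells, with summed levels of 56.5 to 60.9 against 42.0, wholly at the floor, in CD8 cells. In these bulk samples, fewer cells with a transcript and less transcript per cell cannot be told apart. The samples are not stated to come from separate mice, so p-values measure the spread between these samples.

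Of the 10 member probe sets, 7 (of 5 genes) exceeded the floor on 1 or more of the ten-cell arrays and were tested. Both Klf4 probe sets and Klf9 93527_at stayed at the floor in all 9 samples. In SP against CD8 cells, 1 of the 7, that of Klf2, was called by limma at an adjusted p under 0.05, and it was lower in SP. Over all 6823 probe sets tested, 5.83% were called in either direction and 3.0% were called lower in SP. In LSP against USP cells, 0 of the 7 were called, against 0.103% of all tested, and 2 of the 7, Klf2 and Klf9, had an unadjusted p under 0.05, as had 409 of all 6823.

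Klf2 holds T cells in quiescence and drives genes that T cells need to leave and re-enter lymphoid organs. It was lower in the ten-cell SP samples than in the CD8 samples. The intensities of 96109_at on the 2 arrays of each CD8 sample were 1939.8 and 2262.6 in sample B, 773.6 and 711.5 in C, and 702.7 and 691.0 in D. In the USP samples they were 188.3 and 332.4 in N, 419.5 and 372.8 in O, and 401.8 and 484.7 in Z. In the LSP samples they were 15.5 and 71.8 in A, 42.5 and 161.5 in B, and 67.8 and 82.9 in M. Every CD8 sample thus lay above every USP sample, and every USP sample above every LSP sample. How many of all probe sets part the populations in this way was not counted, so the order only describes these samples. The mean level was 10.0 ± 0.89 in CD8 (SD, n = 3), 8.46 ± 0.43 in USP (n = 3) and 7.06 ± 0.10 in LSP (n = 3), where samples A and M were at the floor. The low LSP values were not shared by all cells of the SP tip. The 12 single cells read 28.5 to 1171.2, with a median of 339.4, and the 5 SCE 48.4 to 959.7, with a median of 87.8. Single-cell and ten-cell arrays were not tested against each other.

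The difference between SP and CD8 cells in Klf2 was -2.25 on the log2 scale (SE 0.38), or 4.74-fold lower in SP (adjusted p = 0.0193, limma). All 9 fits that left out 1 sample kept the call, with an adjusted p of 0.0132 to 0.0406. The call was lost on the arrays with positive values alone (log2 difference -1.94, adjusted p = 0.228), where LSP and USP keep 1 sample each, and with no filter on low levels (-2.25, adjusted p = 0.0595). Of 8 tested T-cell marker probe sets, 7 were also lower in SP, as the sort implies. The 9 T-cell probe sets summed to 63.0 in USP and 63.0 to 64.9 in LSP, with no rise to USP as in Klf2. The 6 B-cell probe sets summed to 42.0 to 53.5 in CD8, 42.0 to 44.1 in LSP and 42.4 to 46.7 in USP. Of these, 3 were tested and 0 were called in SP against CD8 (limma). Ms4a1 104173_at differed most, at 8.93 ± 3.34 in CD8 and at the floor in SP (adjusted p = 0.52). The part of T-cell or B-cell content in the Klf2 result was not tested. LSP and USP cells differed in Klf2 by -1.40 (SE 0.44). The floor sets the size of this difference, since 5 of the 6 LSP arrays lay under it, and it was -2.13 with a floor of 6 and -0.53 with a floor of 8. That difference had an unadjusted p of 0.016 from limma and an adjusted p of 0.66, so it was not called among all probe sets. Of the erythroid markers, Hba-a1, a hemoglobin chain, was at 7.91 ± 0.88 in LSP and 10.98 ± 0.27 in USP (adjusted p = 0.716), while Alas2 and Epor were at the floor in both. The summed level of the 8 myeloid probe sets was 61.0 to 64.2 in LSP and 65.9 to 66.3 in USP, with 3 of the 8 above the floor in each. These 3 had higher means in USP, as Klf2 had: S100a9 was at 7.39 ± 0.68 in LSP and 9.49 ± 0.24 in USP (adjusted p = 0.184), S100a8 at 10.7 ± 1.05 and 11.47 ± 0.42 (adjusted p = 0.876), and Lyz2 100611_at at 9.52 ± 0.12 and 10.19 ± 0.47 (adjusted p = 0.914). Mpo, Elane, Itgam and the other Lyz2 probe set were at the floor in both. The part of such cells in the Klf2 difference was not tested.

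**Figure D1:**
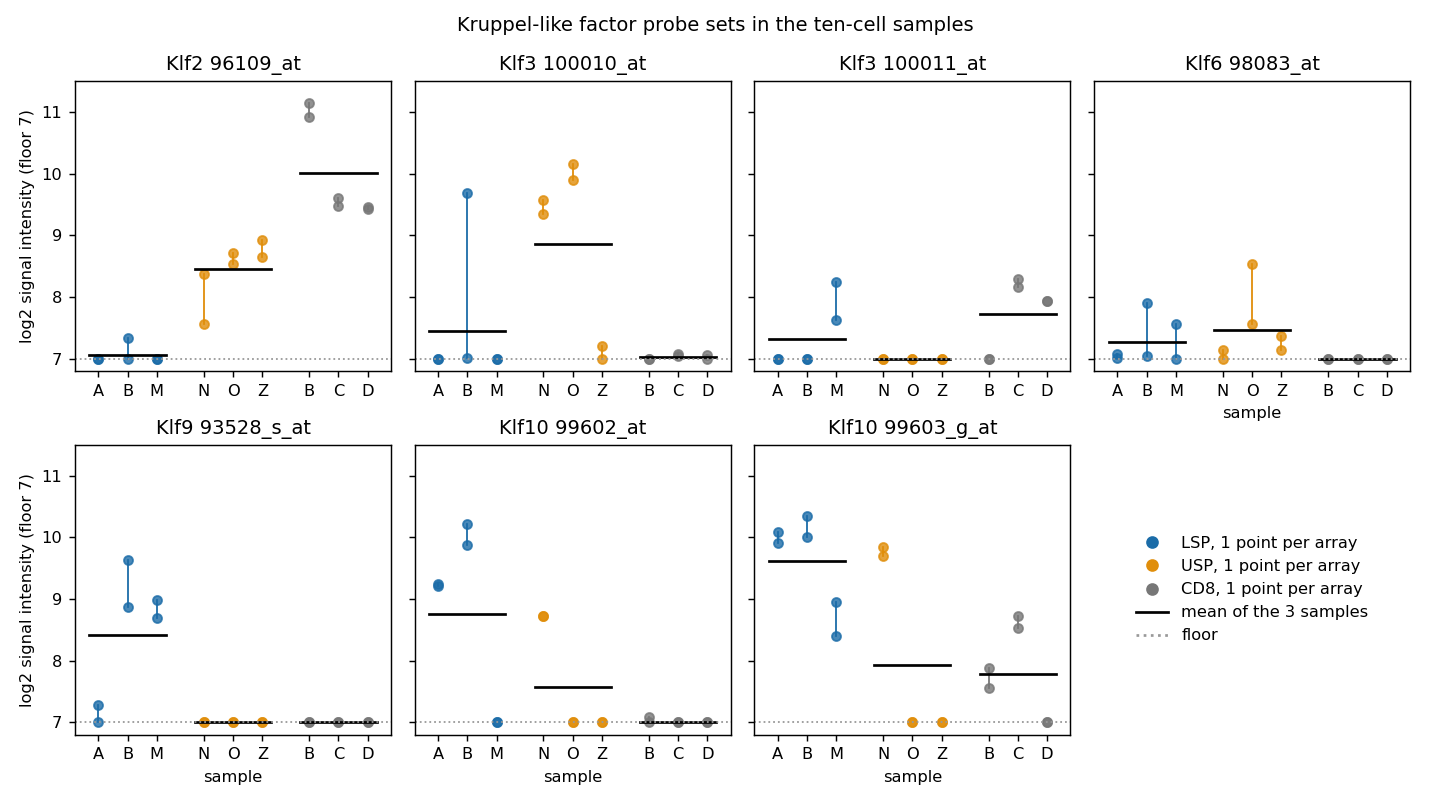
Log2 signal intensity (floor 7, dotted) of the 7 tested Kruppel-like factor probe sets in each ten-cell sample, with 1 point per array, the 2 arrays of a sample joined, and a black line at the mean of the 3 samples of a population. Klf2 steps up from LSP (7.06) to USP (8.46) to CD8 (10.0), whereas Klf9 93528_s_at is above the floor in the LSP samples alone.

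The region upstream of Klf2 is shown because the gene is the member whose level differed between SP and CD8 cells, and because factors that act on it were among the genes measured. The 250 bases before its start, from the RefSeq table of mouse promoters (build GRCm38.p6, plus strand), are written 5′ to 3′ with motif matches in capitals.

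Klf2 chr8:72318812-72319061: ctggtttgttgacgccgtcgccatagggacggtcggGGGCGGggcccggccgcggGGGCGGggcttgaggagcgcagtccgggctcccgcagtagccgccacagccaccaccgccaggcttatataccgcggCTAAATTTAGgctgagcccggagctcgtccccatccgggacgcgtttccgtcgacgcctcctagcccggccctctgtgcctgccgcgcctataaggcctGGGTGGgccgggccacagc

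The capitals mark 2 GC boxes (GGGCGG), which begin 214 and 195 bases before the start, 1 MEF2-type element (CTA and TAG with any 4 bases between them, here CTAAATTTAG) that begins 118 bases before it, and 1 CACCC box (CCACCC, here on the other strand as GGGTGG) that begins 19 bases before it. Each motif was searched on both strands, and no matches overlapped. Among 32851 promoter windows of the same 250 bases, 3.2% held the MEF2-type letters, 32.7% the GC box and 28.1% the CACCC box. Of the members, 5 matched this table by symbol. Klf3 had 6 GC boxes and 3 CACCC boxes, Klf4 had 4 GC boxes, Klf6 had 1 GC box, and Klf9 held none of the 3 motifs in its window. A match of letters is a description and not evidence of a bound site.

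The MEK5, ERK5 and MEF2 pathway and the FoxO factors are known to drive Klf2, and MEF2 factors also act on Klf4. Of 9 tested probe sets of this list (6 genes), 0 were called in SP against CD8 by limma, and their median log2 difference was 0.01, against 0.04 over all probe sets tested. The largest difference was that of Mef2c 97357_at, at 9.93 ± 1.58 in SP (SD, n = 6) and 7.08 ± 0.13 in CD8 (n = 3), 7.24-fold apart with an adjusted p of 0.0531. The other 3 Mef2c probe sets differed by 0.01 to 0.66 on the log2 scale, with all CD8 samples at the floor. The mean levels of Mef2d were 10.8 ± 0.46 in SP and 10.34 ± 0.04 in CD8, and those of Foxo3 10.46 ± 0.32 and 10.6 ± 0.22.

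Of the T-cell trafficking genes that Klf2 is known to drive, 4 probe sets of 3 genes were tested. In SP against CD8, 3 of the 4 were called lower by limma, against 3.0% of all 6823 tested. The median log2 difference was -1.12 over the 4 and 0.04 over all. Of the 8 tested T-cell marker probe sets, 7 were also called lower, as the sort implies. The part of Klf2 in the differences of the trafficking genes was not tested. Itgb7, an integrin chain for homing to the gut, was 11.7-fold lower by 100906_at (adjusted p = 0.0236, limma) and 2.5-fold lower by 162193_f_at (adjusted p = 0.0417). Ccr7, a receptor for homing to lymph nodes, was at least 1.89-fold lower, with all SP samples at the floor (adjusted p = 0.0421). S1pr1, the receptor by which T cells leave lymphoid organs, had the opposite sign by 161788_f_at, at 8.59 ± 1.01 in SP and 7.09 ± 0.09 in CD8 (adjusted p = 0.192). The other S1pr1 probe set, 101953_at, stayed at the floor in SP and in CD8 and was not tested. In LSP against USP, 0 of the 4 were called (limma).

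Klf3, a repressor that works through CtBP, gave 2 different patterns by its 2 probe sets. On 100010_at the USP samples read 646.4 and 766.2 in N, 1133.3 and 956.4 in O, and 148.1 and 76.3 in Z. The LSP samples A and M were negative on both arrays, and LSP sample B read 820.6 on one array and 129.3 on the other. All CD8 arrays lay between 56.5 and 133.9. High values were therefore found in USP samples N and O and on a single array of LSP sample B, and the populations overlapped. The arrays of LSP sample B differed by 2.67 log2 units here, the largest gap among the 90 duplicate pairs of the members, of which 8 were over 0.5 and 1 over 1. That sample was deposited with negative values on one array and with positive values alone on the other. The log2 difference was 1.13 (SE 0.66) between SP and CD8 (adjusted p = 0.469, limma) and -1.41 (SE 0.76) between LSP and USP (adjusted p = 0.876). The latter was -2.29 without USP Z (adjusted p = 0.196) and -0.83 without USP O (adjusted p = 0.901).

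On the other Klf3 probe set, 100011_at, the high samples were CD8 C (312.9 and 288.6), CD8 D (244.2 and 246.1) and LSP M (198.1 and 304.6). No other sample reached the floor of 128. The difference between SP and CD8 was -0.57 (SE 0.33, adjusted p = 0.457, limma), opposite in sign to that of 100010_at. Of the 18 ten-cell arrays, 3 had both Klf3 probe sets above the floor, 7 had 100010_at alone, 3 had 100011_at alone and 5 had neither.

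Klf6, needed in the mouse for early blood formation in the yolk sac, was low and lay above the floor in SP samples alone. The LSP samples read 135.1 and 128.9 (A), 238.1 and 132.7 (B), and 114.6 and 188.9 (M). The USP samples read 120.8 and 141.5 (N), 189.4 and 373.2 (O), and 165.0 and 140.8 (Z). The CD8 arrays read 21.6 to 65.0. All 6 SP samples were thus above the floor, if barely, and all 3 CD8 samples below it. The share of all probe sets that separate in this way was not counted. The mean level was 7.36 ± 0.37 in SP (SD, n = 6), at least 1.29-fold above the CD8 floor (adjusted p = 0.497, limma). With a floor of 6 in place of 7 the difference was 1.34 and was called (adjusted p = 0.0228, limma). The CD8 arrays, at most 65.0 in intensity, lay at or barely over that floor too and added almost no spread. LSP and USP overlapped, at 7.27 ± 0.22 and 7.46 ± 0.52. On arrays with positive values alone the differences were 0.15 between SP and CD8 (adjusted p = 0.0209) and -0.20 between LSP and USP (adjusted p = 0.0344). That fit sets 1 LSP and 1 USP sample against CD8 samples that are all at the floor and so have no measured spread, and its p-values are no support for a difference.

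Klf9, a factor induced by glucocorticoid and thyroid hormone, was above the floor in LSP samples alone by 93528_s_at. It read 126.8 and 156.2 in LSP sample A, 468.4 and 791.7 in B, and 416.1 and 506.0 in M. All USP arrays lay between 12.4 and 39.3, and the CD8 arrays between 10.6 and 112.0. LSP sample A lay just over the floor, at 7.14, and samples B and M at 9.25 and 8.84. LSP thus did not overlap with USP or CD8, though the share of all probe sets that separate so was not counted. The difference between LSP and USP was at least 1.41 on the log2 scale (SE 0.50), at least 2.66-fold, with an unadjusted p of 0.0249 and an adjusted p of 0.727 from limma. Without LSP sample A it was 2.05 and was called (adjusted p = 0.00866), and the SP against CD8 difference likewise went from 0.71 (adjusted p = 0.485) to 1.02 (adjusted p = 0.00511). In these fits the USP and CD8 samples, all at the floor, add no spread of their own. On arrays with positive values alone, with 1 LSP and 1 USP sample, the LSP against USP difference was 2.63 (adjusted p = 0.000764) and that between SP and CD8 1.31 (adjusted p = 0.000578), and these p-values likewise rest on CD8 samples with no measured spread.

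The other Klf9 probe set, 93527_at, was at the floor on all 18 ten-cell arrays, with its highest intensity at 28.6. The letter s in 93528_s_at is the mark of the array maker for probes that can match more than 1 transcript, so that its level may not be that of Klf9 alone. Of the glucocorticoid receptor and 4 of its targets, 3 probe sets were tested in SP against CD8 and 0 were called (limma), with a median log2 difference of 0.22. Per1, a clock gene that glucocorticoid induces, differed most: it was at the floor in all CD8 samples and at 9.06 ± 1.14 in SP, at least 4.16-fold higher (adjusted p = 0.104). Its level was 8.5 ± 1.31 in LSP and 9.62 ± 0.76 in USP, the order opposite to that of Klf9 (adjusted p = 0.876). The receptor gene Nr3c1 stayed at the floor.

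Klf10, induced early by TGF-beta, was above the floor in all 3 LSP samples by 1 of its probe sets but varied between samples of a population. On 99603_g_at the LSP samples read 1089.0 and 952.4 (A), 1295.1 and 1029.8 (B), and 493.3 and 338.6 (M). USP sample N read 923.0 and 823.9, whereas USP samples O and Z read 0.7 to 45.1. The CD8 samples read 189.2 and 236.6 (B), 424.5 and 369.8 (C), and 4.7 and 6.9 (D). The populations overlapped, since 1 USP and 2 CD8 samples lay above the floor with the 3 LSP samples. The levels were 9.61 ± 0.82 in LSP, 7.92 ± 1.60 in USP and 7.79 ± 0.82 in CD8. The differences were 1.69 (SE 0.87) between LSP and USP (adjusted p = 0.876, limma) and 0.98 (SE 0.75) between SP and CD8 (adjusted p = 0.565). Without USP N the former was 2.61 (adjusted p = 0.296).

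On 99602_at, Klf10 read 590.8 and 607.9 in LSP A, 941.6 and 1193.5 in LSP B, and 425.7 and 420.9 in USP N. CD8 sample B read 136.2 and 93.5, and every other sample was under the floor on both arrays. The difference was 1.18 (SE 0.82) between LSP and USP and 1.15 (SE 0.71) between SP and CD8, with an adjusted p of 0.876 and 0.494 (limma). On arrays with positive values alone these became 3.22 (adjusted p = 0.000946) and 1.60 (adjusted p = 0.000976), the LSP population then being a single array of sample B set against CD8 samples at or near the floor. Between LSP and USP the difference was 0.54 without LSP B and 2.06 without LSP M, and neither was called (limma). The probe sets shared the high samples LSP A, LSP B and USP N but parted in LSP M and CD8 C, where 99603_g_at alone lay above the floor. Of the 18 ten-cell arrays, 7 had both above the floor, 5 had 99603_g_at alone, 0 had 99602_at alone and 6 had neither. The letter g marks a probe set that shares probes with other sequences.

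**Figure D2:**
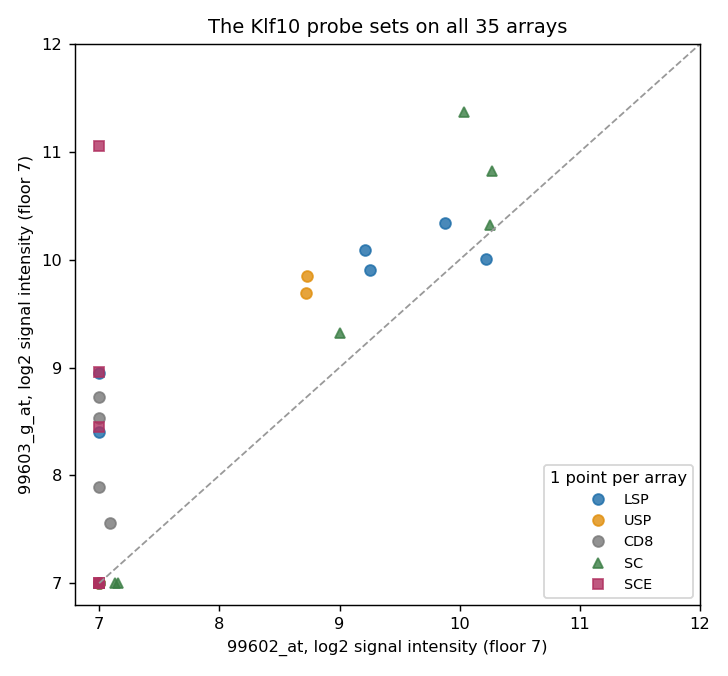
Log2 signal intensity (floor 7) of Klf10 by 99603_g_at against 99602_at, with 1 point for each of the 35 arrays and a dashed line of equal levels; several arrays share the point where both are at the floor. Arrays high on 99602_at are high on 99603_g_at, and a column of LSP, CD8 and SCE arrays at the left is high on 99603_g_at alone.

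Of 10 TGF-beta pathway genes, 5 probe sets of 5 genes were tested, and 0 were called in SP against CD8 or in LSP against USP by limma. Smad4, the common partner of the receptor-activated Smads, differed most between SP and CD8, at 9.53 ± 1.01 and 10.26 ± 0.22 (adjusted p = 0.429). In LSP and USP, Smad4 was at 10.24 ± 0.47 and 8.82 ± 0.92 (adjusted p = 0.707). Tgfb1, Tgfbr1, Tgfbr2, Smad3 and Smad7 stayed at the floor in all 9 samples.

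Klf4, a factor of monocytes and a reprogramming factor, was not detected. Its probe set 99622_at read 0.6 to 98.5 on the 18 ten-cell arrays, and 161185_i_at read -38.1 to 53.9. Neither probe set passed the filter in any population, which bounds its level at the floor and does not show that the transcript was absent.

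**Figure D3:**
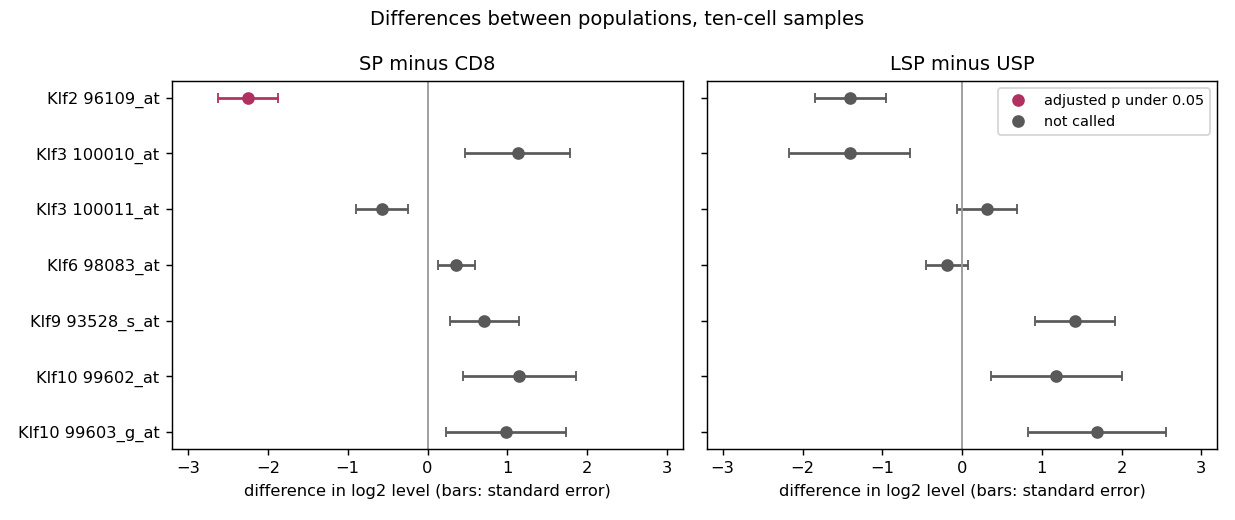
Log2 differences of the 7 tested probe sets in SP minus CD8 (left) and LSP minus USP (right), with bars of 1 standard error from limma. Klf2 in SP minus CD8, at -2.25, is the point called at an adjusted p under 0.05.

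Among the rest of the family, 10 probe sets of 7 genes were tested in SP against CD8, with a median log2 difference of -0.25. Klf13 160617_at was lower in SP (7.03 ± 0.06 against 9.09 ± 0.36, 4.18-fold, adjusted p = 0.000348, limma) and was the single call. The other Klf13 probe set, 103369_at, had the opposite sign, at 8.71 ± 1.41 in SP and 7.64 ± 0.82 in CD8 (adjusted p = 0.609). Klf13 is known in T cells as a factor of late Ccl5 expression. In LSP against USP, 0 of the 10 were called (limma), and Sp1 differed most, at 9.10 ± 1.35 in LSP and at the floor in USP (adjusted p = 0.716).

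Of the cofactors of the family, 0 of 10 tested probe sets (9 genes) were called in SP against CD8 by limma, with a median log2 difference of 0.28. Ctbp2, the corepressor that Klf3 and other members recruit, was at the floor in all CD8 samples and at 10.06 ± 1.61 in SP by 92554_at, at least 8.33-fold higher (adjusted p = 0.111), and Ctbp1 was at 10.8 ± 0.46 and 10.52 ± 0.28. Of the ubiquitin ligases of the family, 0 of 3 tested probe sets were called, with a median of 0.87, and Siah1a differed most, by 1.03 (adjusted p = 0.551). Of the immediate early genes, 0 of 13 tested probe sets (12 genes) were called, with a median of 0.23. Atf3 differed most by 104155_f_at, at least 3.98-fold higher in SP (adjusted p = 0.281, limma). Its probe set 104156_r_at had the opposite sign, at 7.92 ± 1.08 in SP and 8.28 ± 0.18 in CD8 (adjusted p = 0.782, limma), and 161645_r_at stayed at the floor. None of these 3 lists had a call in LSP against USP.

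The genes most like a member over the 9 ten-cell samples were found by the smallest root mean square difference between centered levels. This was done for member probe sets above the floor in at least 5 samples, a rule to which the matched genes were not held. For Klf2, whose own spread was 1.29, these were Mrps17 (0.37), a protein of the mitochondrial ribosome, and Dguok (0.54), a mitochondrial nucleoside kinase. For Klf3 100010_at (own spread 1.13) they were Brca1 (0.29) and Ghitm (0.40), and for Klf6 (0.33) Relb (0.13) and Fgf3 (0.14). Fgf3 was above the floor in LSP B (7.23) and USP O (8.22) alone, and Relb reached at most 7.76, in USP O. The matches of Klf6 thus rest largely on levels at or near the floor. For Klf10 99603_g_at (1.25) the closest genes were Thra (0.51), a thyroid hormone receptor, and Wdr61 (0.52). Klf3 100011_at, Klf9 93528_s_at and Klf10 99602_at were above the floor in too few samples to be matched.

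In single SP cells the members were detected in few cells each. Each cell had 0 to 3 of the 10 member probe sets at the detection level, against 1194 to 1489 of all 12422 probe sets. Low detection was thus common to the array, and whether the members departed from it was not tested. Of the 12 cells, 5 had none of the 6 genes at the detection level, 5 had 1 gene, and 2 had 2 genes, Klf9 and Klf10 in cell I and Klf2 and Klf10 in cell L. The 6 probe sets of 4 genes that reached the detection level on at least 1 of the 17 arrays were tested. Between SC and SCE, 0 of the 6 differed in level by limma, against 0.0429% of all 4659 tested. In level, 1 of the 6 had an unadjusted p under 0.05 (limma), as had 265 of all 4659. In spread, 0 of the 6 were called, against 0.515% of all tested, by the 1-sided exact permutation test over all 6188 array assignments. By that test 1 of the 6 had an unadjusted p under 0.05, as had 526 of all 4659. The member was Klf10 99602_at in both tests. The SCE are aliquots of a single lysate and not separate cell samples, so these p-values compare this lysate with these cells.

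Klf10 was detected in 4 cells by 99603_g_at and in 3 of these by 99602_at. On 99602_at it read 1052.2, 1238.9 and 1216.0 in cells A, I and K and 511.1 in cell L, just under the detection level of 512. The other 8 cells read 10.6 to 143.1, and the 5 SCE read 8.7 to 28.8. Thus 4 cells stood apart from the rest, and 9 of the 12 cells lay above the highest SCE. The mean level was 6.88 ± 2.56 in SC (SD, n = 12) and 3.80 ± 0.79 in SCE (n = 5), a difference of 3.08 (SE 1.13; unadjusted p = 0.0134, adjusted p = 0.674, limma), though all SCE values lie far under the detection level, and with a floor of 7 it was 0.99 (adjusted p = 0.917). The spread, taken as the mean absolute deviation from the group median, was larger in SC than in SCE by 1.5 log2 units (p = 0.016, adjusted p = 0.304, exact permutation test). With that floor the excess in spread was 0.99 and was called (adjusted p = 0.0109), the SCE then having no spread at all.

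On 99603_g_at the same 4 cells were high: A at 2651.4, I at 1805.9, K at 1280.5 and L at 638.2, while the other 8 read 10.5 to 104.3. The probe sets of Klf10 thus named the same cells. In the SCE they did not run together, since 99603_g_at read 2117.8 in aliquot B, 496.6 in D, 349.5 in E, 61.8 in C and 25.1 in A, whereas 99602_at was low in all 5. The spread of 99603_g_at exceeded that in SCE by 0.56 (adjusted p = 0.674, exact permutation test). The 4 cells with Klf10 had 8, 2, 4 and 4 of the 19 immediate early probe sets detected (A, I, K and L), and the other 8 cells had 2 to 5.

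Klf2 was detected in cells F (886.3), G (1171.2) and L (952.7). The other cells ran from 28.5 in E to 501.0 in I, and at a lower detection level of 8, 7 of the 12 cells would count, against 1 of 5 SCE. The SCE read 959.7 in A and 48.4 to 229.2 in the other 4. Of the 4 cells with Klf10, cells A and K were among the 3 lowest for Klf2 (35.5 and 48.5). Cell I read 501.0 for Klf2, the highest of the cells without detection, and cell L was high for both. The difference in level was 0.88 (SE 0.96, adjusted p = 0.915, limma; 1.58 without aliquot A) and that in spread 0.09 (adjusted p = 0.745, exact permutation test).

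Klf9 93528_s_at read 5102.8 in cell I and 745.0 in cell D. Cells E and A read 297.0 and 223.9, and the other 8 cells 15.9 to 79.3. It was detected in 3 of the 5 SCE, at 965.0 in A, 665.7 in B and 997.3 in C, against 138.2 in D and 27.0 in E. The lysate of 40 cells thus gave the transcript in most aliquots, whereas 2 of 12 cells had it at the detection level. SC and SCE did not differ in level (-1.80, SE 1.24, adjusted p = 0.865, limma, and -2.67 without aliquot E) or spread (0.25, adjusted p = 0.733, exact permutation test) beyond their error. Klf9 93527_at read at most 93.0 on the 17 arrays.

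Klf3 was detected in 0 of the 12 cells, whose highest intensities were 292.0 on 100010_at and 250.7 on 100011_at. It was detected in 1 SCE on each probe set, at 677.8 in E on the former and at 703.8 in A on the latter. Klf6 was detected in 0 of 12 cells and 0 of 5 SCE, with medians of 132.8 and 83.7 and a highest intensity of 252.8. Klf4 99622_at read at most 321.6 (cell G) and 161185_i_at at most 162.6 (cell D).

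**Figure D4:**
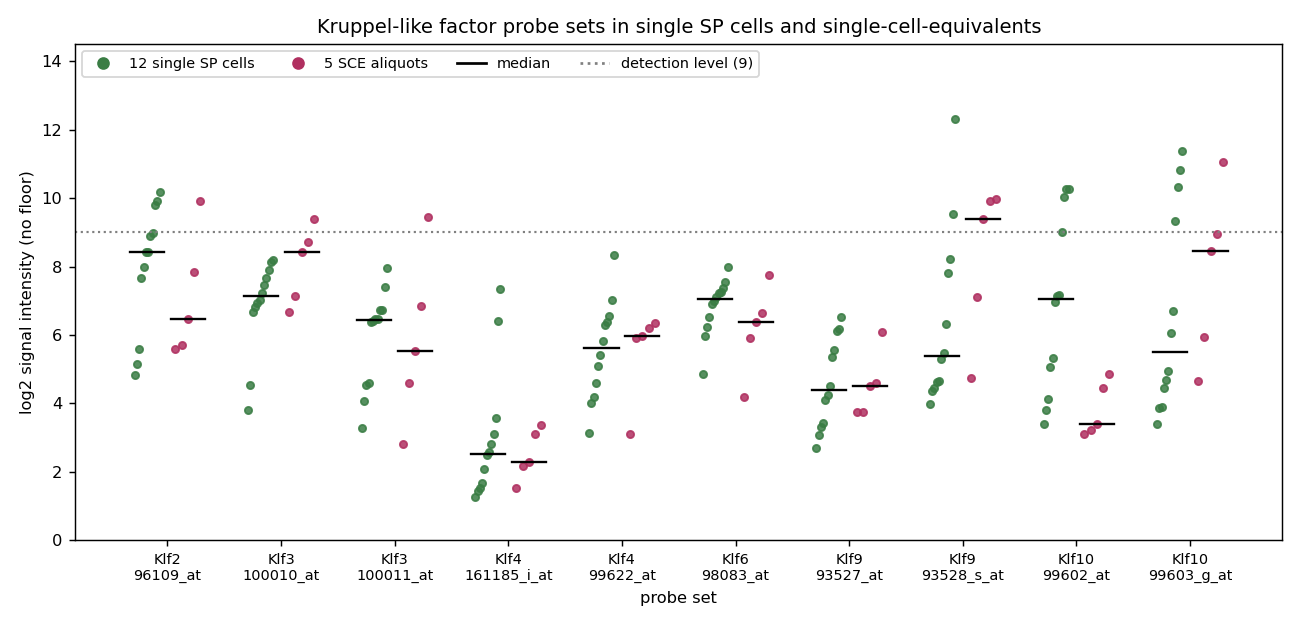
Log2 signal intensity with no floor of the 10 member probe sets in the 12 single SP cells and the 5 SCE aliquots, with 1 point per array, a black line at the median and the detection level of 9 dotted. For Klf10 99602_at the cells split between 4 high ones and the rest, while all 5 aliquots lie low; for Klf9 93528_s_at the median aliquot (665.7 in intensity) is above the detection level and the median cell (41.6) below it.

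The biological proportion is the share of the variance between single cells that is left after the variance between SCE is taken as technical, estimated by maximum likelihood with 1 mean for both. It was 0.96 for Klf10 99602_at, 0.325 for Klf10 99603_g_at, 0.12 for Klf9 93528_s_at, 0.075 for Klf2, and 0.06 and 0.0 for Klf3 100010_at and 100011_at. Among probe sets detected in no cell or aliquot, it was 0.875 for Klf4 161185_i_at and 0.54 for Klf9 93527_at. For Klf4 99622_at and Klf6, also undetected, it was 0.245 and 0.0. A high proportion was thus also found where no transcript was detected. With separate means for SC and SCE it was 0.39 for Klf3 100010_at, 0.32 for Klf9 93528_s_at, 0.17 for Klf2, 0.37 for Klf10 99603_g_at and 0.915 for Klf10 99602_at. Of the 4215 probe sets that 1 or more single cells had at the detection level, 41.7% had a proportion of at least 0.5. The proportion of Klf10 99602_at leans on aliquots that all lie below detection, and the other probe set of the gene did not share it. Klf2 and Klf9 varied about as much between aliquots of 1 lysate as between cells, with SDs of 1.80 and 1.85 for Klf2 and 2.26 and 2.56 for Klf9 93528_s_at. None of the lists of related genes had a call in level between SC and SCE by limma. Of the erythroid markers Hba-a1 was lower in SC (8.14 ± 1.49 against 12.65 ± 0.73, adjusted p = 0.0189), and its part in the values of the members was not tested.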

How the data were processed

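Cells were amplified by global single cell RT-PCR, which copies the 3′ ends of transcripts, and hybridized to Affymetrix MG-U74Av2 arrays. The authors deposited 1 table of signal intensities on a linear scale for 35 arrays. The methods describe logged RMA levels, and the deposited intensities are not these; how they were summarized is not given in the sources used here. Of 12488 probe sets, 66 controls were left out. The array annotation gives 1 gene for 10833 of the rest, several for 396 and none listed for 1193.

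Ten-cell levels under log2 7 were set to 7, both arrays of a sample were averaged, and the 6823 probe sets with an array over the floor were fitted with limma 3.58.1 (R 4.3.3) with 1 mean per population and no block, with Benjamini-Hochberg adjustment over all of them and calls at an adjusted p under 0.05. SP is the mean of LSP and USP. A fold against a population at the floor is a lower bound. SC and SCE were compared on log2 intensities over 4659 probe sets, in level with limma and in spread with a 1-sided exact permutation test of absolute deviations from the group median, which is somewhat liberal because medians are estimated. Labels number the arrays of a sample and give no day or mouse. Deviations of same-numbered arrays correlated between samples at -0.18 to 0.25 (median -0.01), so numbers were not taken as pairs. The small number of arrays limits the precision.

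The members, gene lists, floor and detection level were chosen with earlier results of these data known. All member probe sets are named; other genes are named as the largest difference of a list, as the closest in pattern, or where a value turns on them. Steps ran in Python 3.11.15 (numpy 2.4.6, scipy 1.17.1, pandas 2.3.3, matplotlib 3.10.9) and were tested on simulated data. Alternatives were other floors, separate means in the variance estimate, quantile normalization, filters, blocks, arrays with positive values alone and leaving out each sample.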

Additional observations from a re-analysis of the deposited data

Results flagged for a closer look

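Among the 5 SCE aliquots, Klf4 99622_at read 8.6 in aliquot A and 59.9 to 82.3 in the other 4, so the gap from A to its nearest neighbor took 0.859 of the whole range on the log2 scale, past the 95% critical value of Dixon's test for 5 values. All 5 values lie far under the detection level, and 10 member probe sets were examined, of which chance alone marks about 1 in 20.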

How the results depend on the processing

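The count of probe sets called in SP against CD8 (398) became 661 with duplicateCorrelation, 639 with the array number as a replicate block, 1606 on arrays with positive values alone, 214 with no filter and 1259 at the unadjusted p under 0.05 of the methods, and ran from 254 to 417 with each sample left out. For LSP against USP (7) it became 31 with duplicateCorrelation, 27 with the replicate block, 1196 on arrays with positive values alone, 1 with a level of at least 9 in at least 3 samples and 0 in LSP and USP alone (267 at an unadjusted p under 0.05, limma), and 0 to 31 with each sample left out, 0 without CD8 sample B or C (328 and 318 unadjusted). The replicate block changed no call of a member. Klf2 in SP against CD8 was -2.61 with a floor of 6 and -1.74 with a floor of 8, called in both. For SC against SCE in level (2) it became 8 with a floor of 7 and ran from 1 to 5 without each aliquot. In spread (24) it became 82 with a floor of 7 and 0 with no filter (1203 unadjusted), and ran from 0 to 51 without each aliquot, 0 without A or D (536 and 527 unadjusted). Directions reversed in uncalled values alone. Klf6 in LSP against USP was -0.39 to 0.10 with samples left out, reversed without USP sample O. In level, Klf3 100011_at was -0.38 with a floor of 7, -0.11 with quantile normalization and -0.69 to 0.32 without each aliquot. In spread, a floor of 7 gave -0.42 for Klf3 100010_at, -0.33 for Klf9 93528_s_at and -0.05 for Klf10 99603_g_at. Without each aliquot the spread was -0.23 to 0.63 for Klf2, -0.19 to 0.25 for Klf3 100010_at and -0.15 to 1.01 for Klf9 93528_s_at. The cause of these changes was not tested. The floor limits what low members can show.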
